A study of Arabidopsis thaliana with 18 samples.

Results

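The WRKY transcription factor family was followed through RNA sequencing of leaf 5 of Arabidopsis thaliana, as 45 of the 33602 loci in the deposited count table. The 45 genes were selected by family name, with earlier results of these data known, and the gene TTG2 was left out. Which measured values entered that choice is not stated, so the tests below describe these genes and are no independent evidence that the family was affected. RefSeq gives the WRKY family name to 27 further loci, TTG2 among them, and 7 of those had enough reads to be tested. Leaf 5 was taken as leaf 7 emerged and divided into its margin and its center, and each of the 18 libraries pooled such pieces from 15 to 20 plants. The 6 groups of 3 libraries were margin and center of Col-0 (the wild type), of the tcp2-tcp4 mutant (the double mutant) and of the tcp2-tcp3-tcp4-tcp10 mutant (the quadruple mutant), which lack or reduce members of the TCP family of leaf growth regulators that the microRNA miR319 controls. All 3 lines grew at 23 °C with 16 h of light, for 5 days on plates and then in soil, and were harvested 6 h after lights on. The sources used here name no alleles and no genetic background for the mutants. Plates of each line were placed in the greenhouse 2 days after those of the line before, in the order quadruple mutant, double mutant, Col-0, so an effect of genotype and one of placing date cannot be told apart.

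WRKY proteins are plant transcription factors named for a conserved peptide motif in their DNA-binding domain, and most bind W boxes, short elements found in the promoters of many defense genes and of WRKY genes themselves. The family is sorted into group I, with a domain at each end of the protein, the subgroups IIa to IIe, and group III. In leaves, members are best known from immunity, where mitogen-activated protein kinases and salicylic acid act on them, from senescence, from abiotic stress, and from the rapid response of leaves to wounding and touch.

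Depth was 5932877 to 12018414 reads in genes per library. TCP2 and TCP4 were lower than in Col-0 in both mutants, TCP3 and TCP10 were lower in the quadruple mutant, and the double mutant did not pass the test for TCP3 or TCP10. Margins of Col-0, the double and the quadruple mutant averaged 110 ± 8.57, 20.6 ± 1.86 and 23.6 ± 2.37 CPM (read counts scaled to the size of the library; mean ± SD, n = 3 libraries here and below) for TCP4 and 80.0 ± 1.49, 91.6 ± 11.3 and 8.89 ± 1.05 for TCP10. The leaf label was checked with 4 photosynthesis genes (LHCB1.1, LHCB2.1, RBCS1A and RCA), whose summed level was 29100 to 61400 CPM in the 18 libraries. Reads aligned to several places made up 16.0% of the reads of library 3 of the double mutant margin and 8.60% of library 1 of the Col-0 margin, against 3.71% to 4.97% in the others.

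The 250 bases before the annotated start of each gene were searched on both strands for the W box, TTGACC or TTGACT, and for the core bound by TCP proteins of the class mutated here, GGNCCC. Windows come from the RefSeq annotation of build TAIR10.1. The 4 printed were chosen after values and matches were seen: WRKY29 (AT4G23550) because it had the steepest difference between leaf pieces, and WRKY33 (AT2G38470), WRKY40 (AT1G80840) and WRKY70 (AT3G56400) because they moved together in 1 leaf pool. Capitals mark the matches, and a W box on the opposite strand reads GGTCAA or AGTCAA.
WRKY29, chr4:12291382-12291631, plus strand: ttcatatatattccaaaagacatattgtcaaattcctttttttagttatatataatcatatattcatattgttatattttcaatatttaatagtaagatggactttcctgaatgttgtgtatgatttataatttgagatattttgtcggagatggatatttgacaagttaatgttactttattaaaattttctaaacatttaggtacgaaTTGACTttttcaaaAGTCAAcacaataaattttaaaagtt
WRKY33, chr2:16107985-16108234, plus strand: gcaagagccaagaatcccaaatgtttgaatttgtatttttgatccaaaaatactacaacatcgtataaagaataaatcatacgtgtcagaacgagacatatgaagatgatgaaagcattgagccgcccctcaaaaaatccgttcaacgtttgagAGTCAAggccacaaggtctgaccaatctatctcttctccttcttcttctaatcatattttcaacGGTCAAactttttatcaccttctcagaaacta
WRKY40, chr1:30383311-30383560, plus strand: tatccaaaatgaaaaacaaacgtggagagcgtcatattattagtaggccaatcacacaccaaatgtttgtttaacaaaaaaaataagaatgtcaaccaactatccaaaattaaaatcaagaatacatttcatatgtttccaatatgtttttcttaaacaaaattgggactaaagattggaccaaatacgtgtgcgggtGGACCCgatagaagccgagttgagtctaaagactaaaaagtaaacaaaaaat
WRKY70, chr3:20910624-20910873, minus strand: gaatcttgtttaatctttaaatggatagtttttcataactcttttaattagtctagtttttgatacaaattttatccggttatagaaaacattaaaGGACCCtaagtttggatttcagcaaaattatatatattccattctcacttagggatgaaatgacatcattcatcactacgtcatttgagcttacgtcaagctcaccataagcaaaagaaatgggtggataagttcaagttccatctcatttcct

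Counted back from the annotated start, the WRKY29 window held a W box from base -40 and another, on the opposite strand, from base -26. In WRKY33 a pair of W boxes lay on the opposite strand from bases -96 and -32. WRKY40 and WRKY70 had no W box but 1 TCP core each, from bases -52 and -154. Among all 45 members 16 windows (35.6%) held a W box, against 28.4% of 27443 windows of protein-coding genes, and 7 windows (15.6%) held a TCP core, against 7.35%. No member held both (0 of 45). In WRKY1 and WRKY31 the pair of TCP core matches overlapped on the opposite strands. A match describes letters only, and no match says nothing of whether a factor binds.

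Of the 45 members 31 had enough reads to be tested. The 14 others (WRKY12, WRKY26, WRKY28, WRKY30, WRKY31, WRKY35, WRKY38, WRKY45, WRKY48, WRKY51, WRKY55, WRKY65, WRKY71 and WRKY75) had between 0 reads in all 18 libraries, for the phosphate starvation gene WRKY75, and 84 reads, for WRKY45. Their highest value was 1.31 CPM, for WRKY38 in library 1 of the double mutant center. A count of this size does not show that they were silent in these leaves.

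Per kilobase of exon, 5 members averaged at least 10 CPM over the 6 groups. WRKY70, a regulator of salicylic acid responses and senescence, stood first at 33.2 CPM per kb, with 49.0 ± 41.3 in the Col-0 margin. WRKY3, which acts in resistance to fungi that kill their host cells, followed at 19.7. WRKY11 (14.0), WRKY1 (12.1) and WRKY21 (11.7) came next, and their group means overlapped. WRKY29 ranged from 0.0788 CPM per kb in the double mutant center to 4.44 ± 0.375 in the Col-0 margin, and 5 tested members averaged under 1 CPM per kb.

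**Figure D1:**
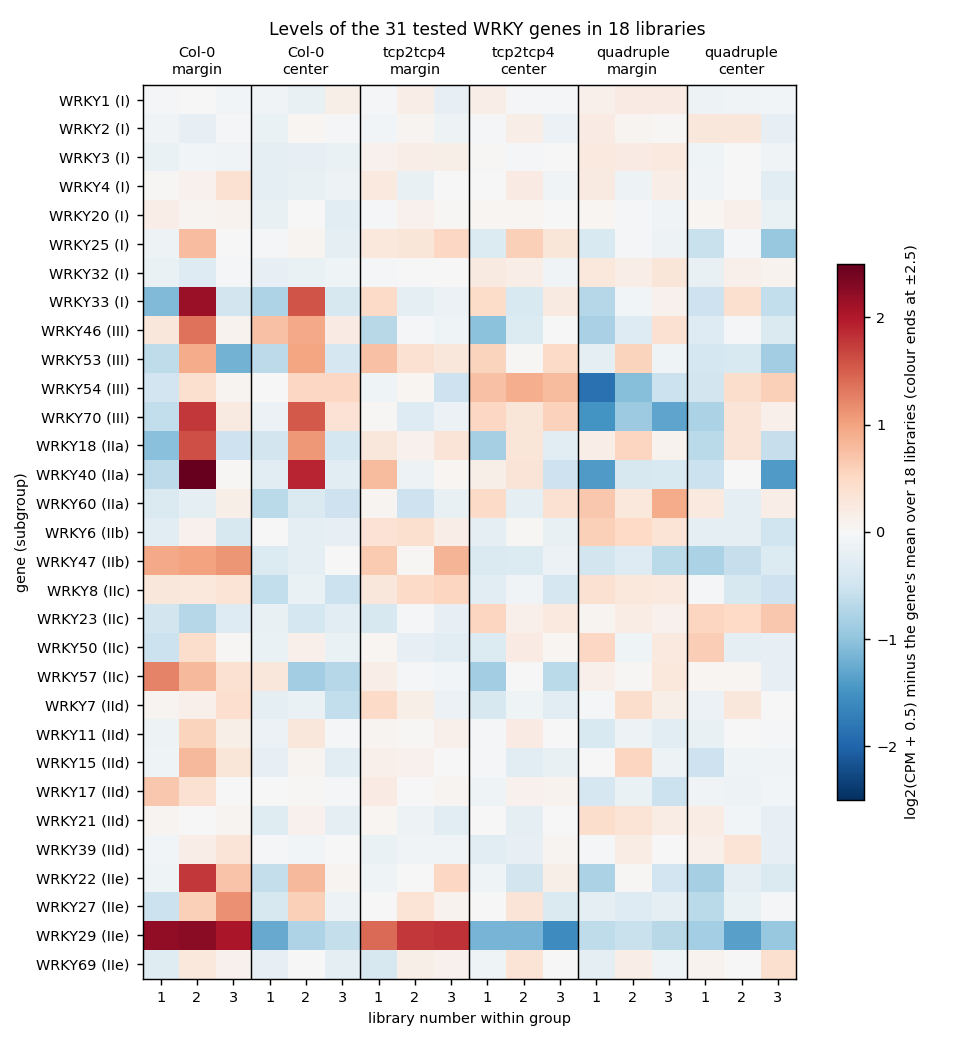
Level of each of the 31 tested WRKY genes (rows, with subgroup) in each of the 18 libraries (columns, grouped by genotype and leaf piece), as log2(CPM + 0.5) minus the gene's own mean. Library 2 of both Col-0 groups is red for WRKY33, WRKY40, WRKY70 and WRKY18, and paler in the center than in the margin. WRKY29 is red in the margin of Col-0 and of the double mutant and blue or pale in the other groups.

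Col-0 leaf pool 2 stood apart from the other pools before any comparison of groups. Margin and center libraries with the same number are taken here as 1 leaf pool, since their deviations from the group means correlated in all 9 pairs, which the labels do not state. In pool 2 of Col-0 both pieces were at least 2-fold above the mean of pools 1 and 3 for 6 of the 31 tested members (19.4%) and for 81 of 17763 loci (0.456%). These ratios had 0.5 CPM added to each value and carry no test. In the double and quadruple mutants 0 of 31 members stood 2-fold higher in both pieces of any pool.

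The 6 genes were WRKY40, WRKY33, WRKY18, WRKY70, WRKY53 and WRKY22. WRKY40 and WRKY18, subgroup IIa factors that bind each other and restrain immune responses, were 8.21-fold and 5.16-fold higher in the margin of pool 2 and 4.49-fold and 2.88-fold higher in its center. WRKY33 (7.51-fold and 4.39-fold) is required for the antimicrobial compound camalexin. Its CPM were 4.13, 44.1 and 6.75 in the 3 Col-0 margin libraries and 5.34, 29.0 and 7.09 in the center. Library 2 was the high one in both pieces, while the 12 mutant libraries lay between 5.59 and 13.5. WRKY70 (3.73-fold and 2.63-fold) read 26.8, 141 and 48.1 CPM in the margin and 37.0, 119 and 52.8 in the center.

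WRKY53, which promotes leaf senescence, was 3.53-fold and 2.88-fold higher in that pool, and WRKY22, a factor of the response to bacterial flagellin, 2.65-fold and 2.05-fold. WRKY46 passed 2-fold in the margin alone (2.23-fold, and 1.36-fold in the center). The other 24 tested members stayed under 2-fold in both pieces. Of 10 tested genes of a list for wounding, touch and cold, 5 were at least 2-fold higher in both pieces of pool 2: TCH4 (8.61-fold and 5.39-fold), TCH3, ZAT10, ERF6 and TCH2. Summed over the list, Col-0 margins held 109, 706 and 124 CPM, Col-0 centers 129, 387 and 84.4, and the mutant libraries 111 to 274. The touch gene TCH4 alone made up 417 of the 706 CPM and 230 of the 387 CPM. ZAT12, ERF5, CML38 and CBF2 passed 2-fold in the margin alone. In the center of pool 2 the cold genes CBF2 (0.598-fold) and CBF3 (0.392-fold) were below the mean of pools 1 and 3. Among 11 tested genes of salicylic acid signaling, SARD1 (6.26-fold and 4.85-fold) and CBP60G (4.89-fold and 3.62-fold) passed 2-fold in both pieces. Both are activators of salicylic acid synthesis. NPR3 passed 2-fold in the margin alone (2.08-fold). The synthesis enzyme ICS1 was not raised in that pool (0.865-fold and 0.88-fold). The exporter EDS5 (0.736-fold and 1.18-fold) and the synthesis enzyme PBS3 stayed under 2-fold in both pieces. Whether handling moved the WRKY genes was not tested.

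**Figure D2:**
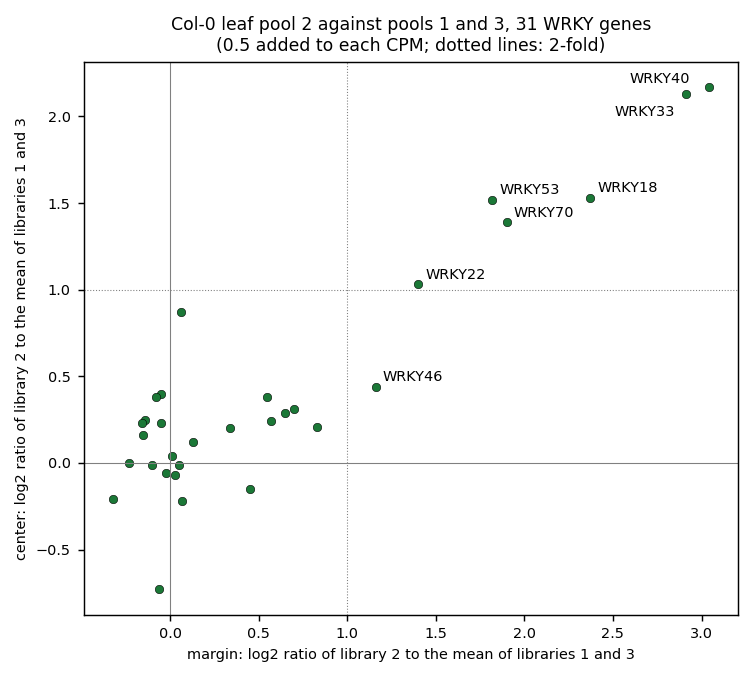
Each point is 1 of the 31 tested WRKY genes: the log2 ratio of Col-0 library 2 to the mean of libraries 1 and 3 in the margin (x axis) and in the center (y axis), with 0.5 added to each CPM. The 6 genes beyond both dotted 2-fold lines run from WRKY22 at 1.40 and 1.03 to WRKY40 at 3.04 and 2.17.

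The biological coefficient of variation, the spread between libraries of a group beyond counting error, had a median of 9.92% over the 31 members and 6.44% over all 17763 loci tested. Over the 25 members other than the 6 above the median was 8.03%. The coefficient was 75.0% for WRKY40, 52.3% for WRKY33, 42.7% for WRKY18, 39.2% for WRKY53 and 36.0% for WRKY70, against 3.61% for WRKY3 and 4.05% for WRKY6. Counts of members called against Col-0 are also given without pool 2, an alternative chosen after seeing the data.

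The first comparison asked which WRKY genes differed between margin and center of a Col-0 leaf. WRKY29, WRKY47, WRKY8 and WRKY57 were higher in the margin, and no tested member was lower. WRKY29, which acts with WRKY22 below the kinase cascade triggered by flagellin, read 6.36, 6.60 and 5.60 CPM in the margin and 0.121, 0.372 and 0.480 in the center. The groups were far apart, and the center values rest on 8 reads in all. The log2 fold change was 4.19 ± 0.34 (SE; adjusted p = 4.94e-08, edgeR quasi-likelihood test, as for each adjusted p below). The locus overlaps AT4G23560, which had at most 0.0656 CPM in any group.

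WRKY47, of subgroup IIb, read 3.96, 4.15 and 4.45 CPM in the margin and 1.33, 1.49 and 1.80 in the center (1.44 ± 0.25, adjusted p = 6.34e-04). WRKY8, known from salt stress and from defense, read 3.61, 3.54 and 3.73 against 1.70, 2.48 and 1.80 (0.86 ± 0.22, adjusted p = 0.0137). WRKY57, which promotes drought tolerance and delays senescence, read 3.78, 2.69 and 1.87 against 1.70, 0.495 and 0.601 (1.54 ± 0.38, adjusted p = 0.0102). None of the 4 pairs of groups overlapped, which adds no evidence to the calls, since overlap was not counted over all loci. The WRKY8 call was lost without center library 1 or 3 (adjusted p up to 0.0726). The WRKY57 call was lost without margin library 1 or center library 2 or 3 (adjusted p up to 0.0612), and without both libraries of pool 2 (1.26, adjusted p = 0.114).

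The 4 calls among 31 members compare with 11.4% of all loci called (5.3% higher and 6.13% lower in the margin), so the share of WRKY genes called was near that of all loci. The median log2 fold change was 0.26 over the 31 members and 0.003 over all loci. Without pool 2, 4 members were called, all higher and WRKY20 in place of WRKY57, beside 5.85% of loci. With the leaf pool as a block, which removes differences between pools, 10 members were called, all higher in the margin, as against 21.6% of loci. The 6 added were WRKY22 (0.85 ± 0.19, adjusted p = 6.94e-04), WRKY15 (0.55 ± 0.14, adjusted p = 0.00278), WRKY7, WRKY4, WRKY17 and WRKY20. WRKY7, WRKY15 and WRKY17 are subgroup IId factors, which bind calmodulin.

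Cells differ between margin and center, and in whole pieces fewer cells of a type cannot be told apart from less RNA per cell. Hydathodes, the water pores of the leaf rim, were followed with PHT1;4, TAA1, PUP1 and GLN1;4. All 4 were higher in the Col-0 margin, by log2 fold changes of 0.78 to 4.37, and their sum was 55.0 to 56.0 CPM there against 17.6 to 18.7 CPM in the center. Guard cell genes were called higher for 3 of 4 and phloem genes for 3 of 5. The part of these cell types in the WRKY differences was not tested.

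**Figure D3:**
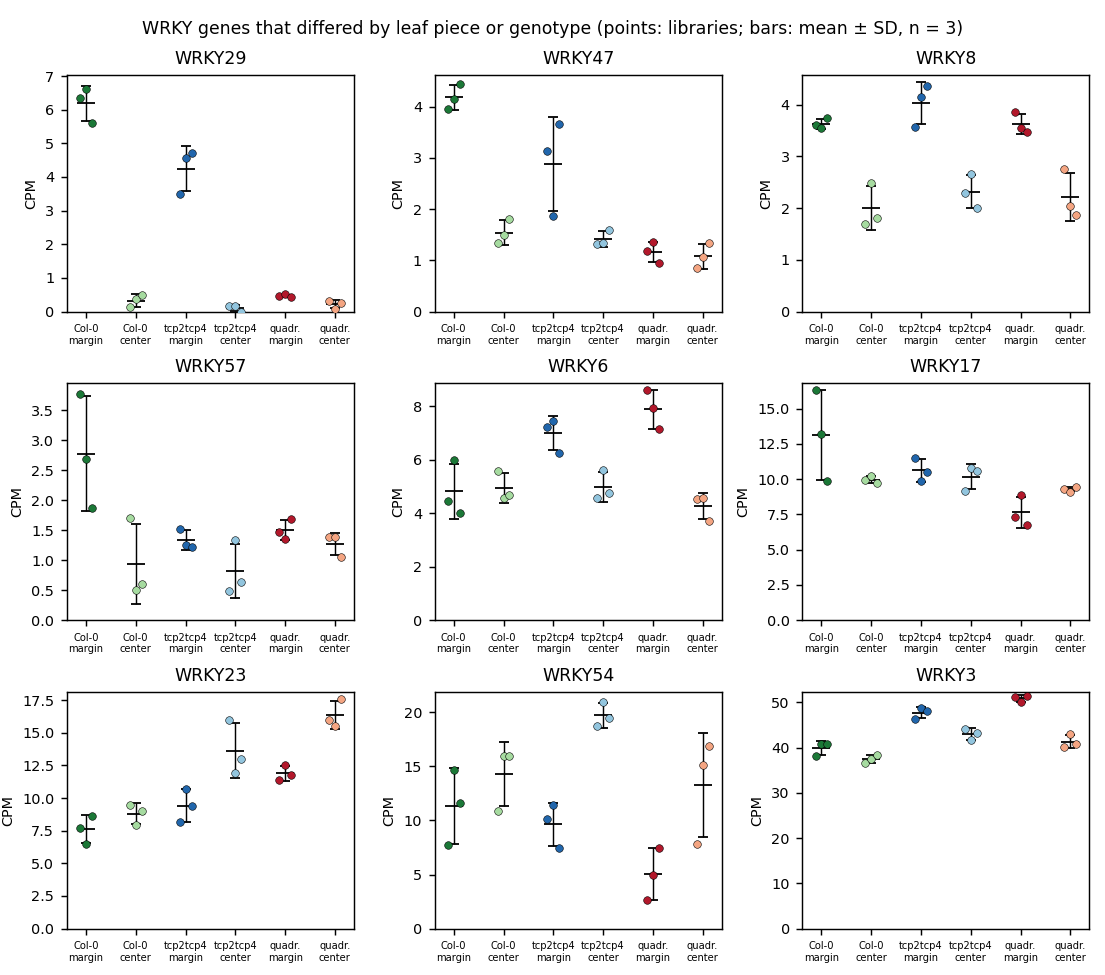
CPM of 9 WRKY genes, picked after their values were seen, in each library (points), with mean ± SD of the 3 libraries of a group (bars). WRKY29 and WRKY47 are highest in the Col-0 margin, intermediate in the double mutant margin and low in the quadruple mutant margin, WRKY8 keeps a higher margin in each genotype, and WRKY23 is highest in the quadruple mutant center.

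In the double mutant WRKY29, WRKY47 and WRKY8 were higher in the margin, and WRKY54 and WRKY23 were lower. WRKY29 read 3.48, 4.57 and 4.70 CPM in the margin and 0.164, 0.166 and 0 in the center, a fitted log2 difference of 5.29 ± 0.47 (adjusted p = 1.94e-07). With 110 reads against 2 reads the ratio was 44.7, with a 95% counting interval of 12.1 to 373. The fitted value depends on the small count added to each gene, and the center is near the limit of detection.

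WRKY54, a close relative of WRKY70 that restrains senescence, averaged 9.67 ± 2.0 CPM in the margin, from 7.49 to 11.4, and read 18.7, 21.0 and 19.5 in the center (-0.99 ± 0.27, adjusted p = 0.0256). WRKY23, an auxin-responsive gene known from root development, read 8.13, 10.7 and 9.41 against 16.0, 11.9 and 13 (-0.54 ± 0.13, adjusted p = 0.0145). For WRKY47 the margin was the higher piece (0.97 ± 0.27, adjusted p = 0.0342), as it was for WRKY8 (0.80 ± 0.21, adjusted p = 0.0206). The 5 calls stand beside 7.51% of all loci (2.47% higher, 5.04% lower). With the pool as a block 6 members were called (17.1% of loci), WRKY70 being added (-0.61 ± 0.09, adjusted p = 5.16e-07).

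Several of these calls were lost when 1 library was left out, which also leaves fewer libraries to test with. The WRKY47 call was lost in 5 of 6 fits that each left out 1 library, all but that without margin library 2 (adjusted p up to 0.166). The WRKY54 call was lost without margin library 1 or 3 or center library 2 or 3 (adjusted p up to 0.0837). The WRKY8 call was lost without margin library 2 or 3 or center library 1 or 3 (adjusted p up to 0.147), and the WRKY23 call without margin or center library 1 (adjusted p up to 0.112). WRKY29 was called in all 6 fits.

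In the quadruple mutant the WRKY29 and WRKY47 differences did not pass the test (1.12 ± 0.56, adjusted p = 0.186, and 0.14 ± 0.30, adjusted p = 0.799). Higher in the margin were WRKY6, WRKY8, WRKY21, WRKY3 and WRKY1, and lower were WRKY54 and WRKY23. WRKY6, which regulates senescence and phosphate transport, read 8.61, 7.94 and 7.15 CPM in the margin and 4.55, 4.56 and 3.72 in the center (0.87 ± 0.15, adjusted p = 2.04e-04). WRKY54 read 2.66, 4.98 and 7.47 against 7.83, 15.1 and 16.9 (-1.41 ± 0.29, adjusted p = 0.00112). Each margin library was below each center library.

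WRKY3 had a small difference with little scatter, 51.2, 50 and 51.4 CPM in the margin and 40.1, 42.9 and 40.8 in the center (0.30 ± 0.06, adjusted p = 3.76e-04). WRKY23 read 11.4, 12.5 and 11.8 against 16.0, 15.5 and 17.6 (-0.45 ± 0.12, adjusted p = 0.00706). WRKY8 (0.70 ± 0.19, adjusted p = 0.00959), WRKY21 (0.35 ± 0.11, adjusted p = 0.0231) and WRKY1 (0.28 ± 0.09, adjusted p = 0.0245) were called as well. WRKY8 was thus the 1 member called higher in the margin of every genotype. The WRKY8 call was lost without center library 2 (adjusted p = 0.0708), and the WRKY21 call without margin library 1 or 2 or center library 2 or 3 (adjusted p up to 0.12).

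The 7 calls of 31 stand beside 25.6% of all loci (12.1% higher, 13.5% lower). With the pool as a block 12 members were called, beside 36.3% of loci. The 5 added were WRKY70 (-1.18 ± 0.10, adjusted p = 2.66e-14), WRKY15, WRKY18, WRKY53 and WRKY60, the last 4 higher in the margin. WRKY70 read 14.2, 21.6 and 16.2 CPM in the margin and 23.6, 51.6 and 44.7 in the center, so the margin was lower in each of the 3 pools. The SE of the block fit draws on the pools of every genotype and is not the spread of these 3 pools alone.

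Whether the margin to center difference itself changed with genotype was tested as an interaction. Between the quadruple mutant and Col-0 it changed for 4 members, beside 17.2% of loci. WRKY29 (-3.07 ± 0.81, adjusted p = 0.012) and WRKY47 (-1.29 ± 0.40, adjusted p = 0.0306) had a smaller margin excess in the quadruple mutant. WRKY17 (-0.66 ± 0.20, adjusted p = 0.0302), which restrains basal resistance, went from 16.3, 13.2 and 9.90 CPM in the Col-0 margin to 7.33, 8.87 and 6.73 in the quadruple mutant margin, while the center read 9.73 to 10.2 and 9.12 to 9.44. WRKY6 (0.89 ± 0.23, adjusted p = 0.0109) gained a margin excess. Its Col-0 values were 4.47, 5.98 and 4.02 CPM in the margin and 5.58, 4.58 and 4.68 in the center, which overlap.

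Without pool 2 of Col-0 3 members changed, WRKY20 (-0.40) among them, beside 12.7% of loci. The values were -3.12 for WRKY29 (adjusted p = 0.0309) and 1.15 for WRKY6 (adjusted p = 0.00532), while WRKY17 (adjusted p = 0.0799) and WRKY47 (adjusted p = 0.0836) were no longer called. The WRKY29 call was lost without quadruple mutant center library 1 (-2.67, adjusted p = 0.115). The WRKY17 call was lost in 8 of 12 fits that each left out 1 library (adjusted p up to 0.0863): without margin library 1 or 2 or center library 1 or 3 of Col-0, and without margin library 1 or 3 or center library 1 or 2 of the quadruple mutant. The WRKY47 call was lost in 6 of 12 (adjusted p up to 0.0805): without margin library 3 or center library 1 or 2 of Col-0, and without margin library 3 or center library 2 or 3 of the quadruple mutant. The WRKY6 call was lost in none of the 12.

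With the pool as a block 9 members changed, beside 28.1% of loci. The 5 added were all lower: WRKY70 (-1.18 ± 0.13, adjusted p = 1.55e-10), WRKY54 (-1.10 ± 0.19, adjusted p = 7.57e-06), WRKY57, WRKY11 and WRKY20. WRKY54 and WRKY70, neighbors in group III, were also the 2 members called between the double mutant and Col-0 with that block (-0.68 ± 0.18, adjusted p = 0.00869, and -0.61 ± 0.12, adjusted p = 4.38e-04), beside 7.58% of loci. Without the block edgeR called 0 members there and 0.439% of loci. At an unadjusted p under 0.05 there were 3 members, beside 2098 of 17763 loci, and DESeq2 called 0 members. Without pool 2 edgeR also called 0, beside 0.145% of loci.

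Between the quadruple and the double mutant WRKY29 was the 1 member called (-4.17 ± 0.95, adjusted p = 0.018), beside 2.9% of loci. That value rests on the 2 reads of the double mutant center, and the call was lost without double mutant center library 3 (-3.43, adjusted p = 0.0552) or quadruple mutant center library 1 (-3.76, adjusted p = 0.125). With the pool as a block WRKY21 (0.38 ± 0.12, adjusted p = 0.0334) and WRKY70 (-0.57 ± 0.13, adjusted p = 0.00184) were added, beside 11.3% of loci.

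The quadruple mutant margin held the most WRKY calls against Col-0, as it held the most over all loci (43.9% called): 11 members were lower and 6 higher. WRKY29 fell to 0.458, 0.507 and 0.421 CPM (-3.70 ± 0.30, adjusted p = 3.91e-09) and WRKY47 to 1.19, 1.35 and 0.947 CPM (-1.82 ± 0.25, adjusted p = 4.78e-06), both apart from every Col-0 margin library. WRKY17 (-0.76 ± 0.14, adjusted p = 2.11e-04) and its close relative WRKY11 (-0.51 ± 0.13, adjusted p = 0.00383) were lower. WRKY11 read 19.2, 22.9 and 20.8 CPM against 23.2, 37.5 and 27.8 in Col-0. WRKY54 (-1.22 ± 0.31, adjusted p = 0.00302) was lower too, and these 5 were also called without Col-0 pool 2.

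WRKY70 was lower with pool 2 (-2.08 ± 0.46, adjusted p = 9.43e-04) and without it (-1.12 ± 0.28, adjusted p = 0.00342), so the size depended on that pool and the direction did not. WRKY40 read 0, 0.507 and 0.526 CPM in the quadruple mutant margin, against 0.344, 8.55 and 0.861 in Col-0. Its fitted change of -3.32 ± 1.0 (adjusted p = 0.0105) became -0.84 ± 0.94 (adjusted p = 0.516) without pool 2. WRKY22 went from -1.57 ± 0.40 (adjusted p = 0.00329) to -0.85 ± 0.35 (adjusted p = 0.0613), and WRKY46, which acts with WRKY54 and WRKY70 in drought responses, from -1.24 ± 0.45 (adjusted p = 0.0314) to -0.54 ± 0.51 (adjusted p = 0.442). In these 3 genes and in WRKY27 the libraries of the groups overlapped, and in the other 13 called members they did not. Overlap was not counted over all loci, so these counts add no evidence to the calls.

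WRKY27 (-1.24 ± 0.45, adjusted p = 0.0303) and WRKY57 (-0.87 ± 0.33, adjusted p = 0.0371) each lost their call in 5 of 6 fits that left out 1 library. For WRKY27 the exception was the fit without Col-0 library 1, and the value without Col-0 library 3 was -0.74 (adjusted p = 0.272). For WRKY57 the exception was the fit without Col-0 library 3, and the value without Col-0 library 1 was -0.62 (adjusted p = 0.188). The WRKY46 call was also lost without quadruple mutant library 1 (-0.90, adjusted p = 0.14) or 2 (-1.15, adjusted p = 0.0903).

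Among the 6 higher members WRKY6 rose from 4.47, 5.98 and 4.02 to 8.61, 7.94 and 7.15 CPM (0.69 ± 0.16, adjusted p = 0.00115) and WRKY23 from 7.74, 6.47 and 8.61 to 11.4, 12.5 and 11.8 CPM (0.65 ± 0.14, adjusted p = 6.20e-04). WRKY3 (0.35 ± 0.06, adjusted p = 4.28e-05) rose from 38.2, 40.9 and 40.8 to 51.2, 50 and 51.4 CPM. WRKY32 (0.44 ± 0.11, adjusted p = 0.00334), of group I, rose from 10.7, 9.53 and 11.9 to 14.7, 13.7 and 15.0 CPM. All 4 were called without pool 2 as well.

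WRKY60, the third IIa gene, rose from 0.86, 0.977 and 1.44 to 2.29, 1.61 and 2.84 CPM (1.01 ± 0.33, adjusted p = 0.0168). WRKY21 rose from 25.8, 24.2 and 25.6 to 33.1, 31.2 and 27.8 CPM (0.29 ± 0.11, adjusted p = 0.0445). The WRKY60 call was lost without Col-0 library 1 or 2 or quadruple mutant library 3 (adjusted p up to 0.0824). The WRKY21 call was lost without any Col-0 library or quadruple mutant library 1 or 2 (adjusted p up to 0.17).

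The 17 calls of 31 members (54.8%) stand beside 43.9% of all loci (22.1% higher, 21.8% lower), and the median change was -0.12 against 0.028 over all loci. Without Col-0 pool 2, 12 members were called, 6 higher and 6 lower, beside 38.4% of loci, and 10 of these were among the 17. WRKY18 and WRKY53 were called only then, both higher in the quadruple mutant (1.13 ± 0.34, adjusted p = 0.0134, and 1.51 ± 0.49, adjusted p = 0.0189). With all libraries WRKY18 was at -0.31 ± 0.49 (adjusted p = 0.64) and WRKY53 at 0.07 ± 0.54 (adjusted p = 0.934), and WRKY33 turned from -1.23 ± 0.62 (adjusted p = 0.116) to 0.58 ± 0.39 (adjusted p = 0.259), in neither case called. The WRKY53 locus overlaps AT4G23800, whose group means were 50.7 to 168 CPM and highest in the quadruple mutant margin, so its few reads are uncertain in origin.

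**Figure D4:**
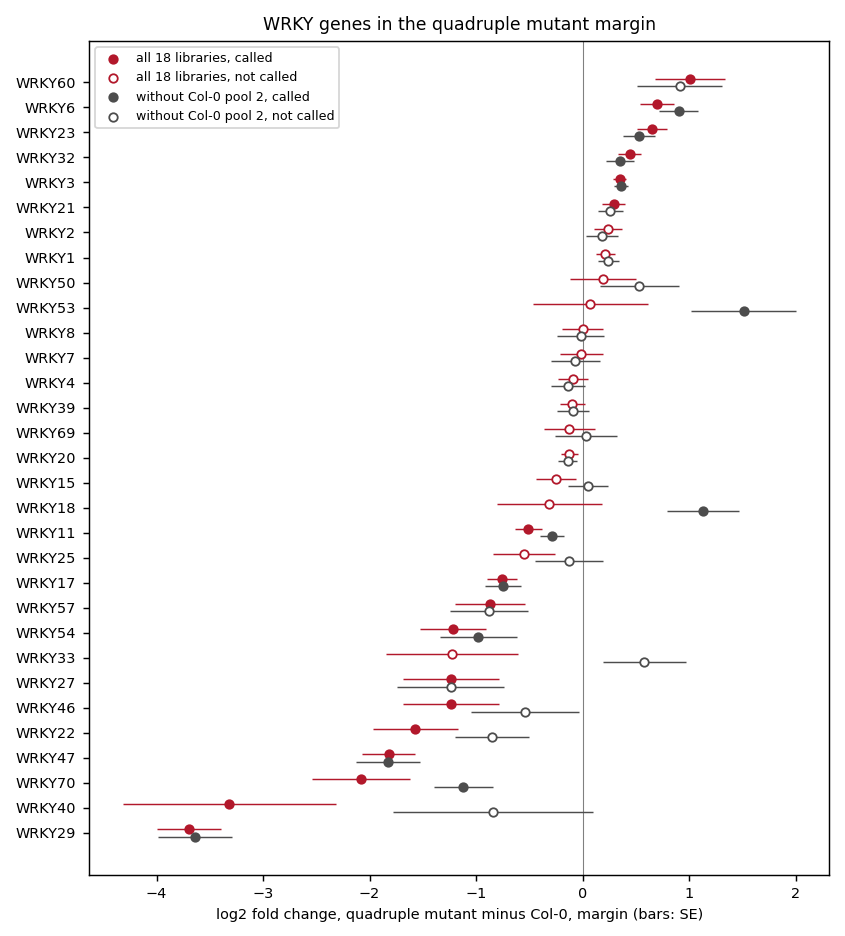
Log2 fold change of the 31 tested WRKY genes in the margin, quadruple mutant minus Col-0, with SE, from all 18 libraries (red) and without the 2 libraries of Col-0 pool 2 (grey), with filled points called at adjusted p under 0.05. WRKY29 and WRKY47 stay in place, WRKY40 moves from -3.32 to -0.84, and WRKY53 and WRKY18 move to 1.51 and 1.13.

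The double mutant margin shared its Col-0 controls with this comparison. There WRKY3 (46.3, 48.7 and 48.1 CPM, 0.25 ± 0.06, adjusted p = 0.00549) and WRKY6 (7.23, 7.47 and 6.27 CPM, 0.53 ± 0.16, adjusted p = 0.0346) were higher than in Col-0. These 2 of 31 stand beside 14.1% of loci. WRKY29 (-0.56 ± 0.22, adjusted p = 0.0904) and WRKY47 (-0.58 ± 0.23, adjusted p = 0.0981) did not pass the test. WRKY6 lost its call without Col-0 margin library 1 or 3 or double mutant margin library 1 or 2 (adjusted p up to 0.168). Without Col-0 pool 2 both were called (0.27 for WRKY3 and 0.74 for WRKY6), as was WRKY53 (1.99 ± 0.47, adjusted p = 0.00949), beside 10.7% of loci.

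Against the double mutant, the quadruple mutant margin was lower in WRKY29 (-3.13 ± 0.31, adjusted p = 3.71e-07), WRKY47 (-1.25 ± 0.26, adjusted p = 0.00108), WRKY54 (-1.0 ± 0.31, adjusted p = 0.0208) and WRKY17 (-0.47 ± 0.14, adjusted p = 0.0199). It was higher in WRKY60 (1.07 ± 0.31, adjusted p = 0.015) and WRKY21 (0.42 ± 0.11, adjusted p = 0.0074). The 6 calls stand beside 25.8% of loci. In these 6 genes the libraries of the groups did not overlap, a count that was not made over all loci and adds no evidence to the calls. The WRKY54 call was lost without library 1 or 2 of either mutant (adjusted p up to 0.117), the WRKY17 call without double mutant library 1 or quadruple mutant library 1 or 3 (adjusted p up to 0.104), and the WRKY60 call without double mutant library 2 or quadruple mutant library 3 (adjusted p up to 0.0947).

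In the center WRKY23 was the 1 member called against Col-0. Its Col-0 libraries read 9.46, 7.93 and 9.01 CPM, those of the double mutant 16.0, 11.9 and 13, and those of the quadruple mutant 16.0, 15.5 and 17.6. Every mutant library was above every Col-0 library. The double mutant differed by 0.63 ± 0.14 (adjusted p = 0.00799), beside 6.15% of loci called, and the quadruple mutant by 0.88 ± 0.13 (adjusted p = 2.76e-05), beside 31.1%. Both comparisons use the same Col-0 libraries. Without pool 2 the values were 0.56 ± 0.14 (adjusted p = 0.0345, 4.17% of loci called) and 0.81 ± 0.14 (adjusted p = 2.76e-04, 26.1% of loci called), and WRKY20 was added in the quadruple mutant (0.26 ± 0.09, adjusted p = 0.0434). The quadruple and double mutant centers differed in 0 of 31 members by edgeR, beside 7.93% of loci, and in 0 by DESeq2. With an unadjusted p under 0.05 there were 2 members, beside 3824 of 17763 loci.

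Over the 12 comparisons 19 of the 31 tested members were called at least once. The share of all loci called at least once was not computed, and the quadruple mutant margin against Col-0 alone called 43.9% of loci. The 12 never called were WRKY2, WRKY4, WRKY7, WRKY15, WRKY18, WRKY20, WRKY25, WRKY33, WRKY39, WRKY50, WRKY53 and WRKY69, with fitted changes between -1.23 (WRKY33, quadruple mutant against Col-0 margin) and 0.98. Over the 18 libraries WRKY2 ranged from 9.16 to 13.1 CPM, WRKY20 from 21.1 to 28.9 CPM and WRKY39 from 14.1 to 21.9 CPM. WRKY18, WRKY33 and WRKY53 are among the 6 genes that were high in Col-0 pool 2.

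By subgroup, the quadruple mutant margin against Col-0, where 21.8% of all loci were lower and 22.1% higher, had 3 of 4 tested IIe members lower (WRKY22, WRKY27 and WRKY29), 3 of 4 of group III lower (WRKY46, WRKY54 and WRKY70), and 2 of 8 of group I higher (WRKY3 and WRKY32). Of the 6 IId members, WRKY11 and WRKY17 were lower and WRKY21 was higher. In IIa WRKY40 was lower and WRKY60 higher, in IIb WRKY47 was lower and WRKY6 higher, and of 4 in IIc WRKY57 was lower and WRKY23 higher. Without Col-0 pool 2, IIe had 1 of 4 lower (WRKY29), group III had 2 lower and 1 higher (WRKY53), and IIa had WRKY18 higher alone. With 2 to 8 tested members a subgroup, these are counts and no test.

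Genes that act with WRKY factors were read in the same comparison, in which 43.9% of all loci were called, so the shares of the lists below are to be set beside that. Of 11 tested kinases and partners, 2 were lower, MKK2 (-0.28 ± 0.08, adjusted p = 0.00645) and MPK4 (-0.22 ± 0.08, adjusted p = 0.0412), and none higher. MPK4 and MKK2 act in a kinase cascade that controls WRKY33. Of 11 salicylic acid genes 5 were lower and 1 higher, among them the salicylic acid exporter EDS5 (-4.10 ± 0.70, adjusted p = 6.61e-05) and the synthesis enzyme ICS1 (-0.80 ± 0.15, adjusted p = 2.40e-04), and the 1 higher was the defense protein gene PR5 (1.25 ± 0.14, adjusted p = 3.48e-07). EDS5 had 2 reads in all in the quadruple mutant margin, so the size of its change is uncertain. Of 5 pattern-triggered genes, CYP71A13 of camalexin synthesis was lower (-3.32 ± 0.23, adjusted p = 4.64e-10), and BAK1 (0.50 ± 0.10, adjusted p = 2.70e-04) and PROPEP1 were higher. PROPEP1 was not called without Col-0 pool 2 (0.84, adjusted p = 0.165), while CYP71A13 and BAK1 were.

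Of 10 wounding, touch and cold genes 5 were lower, with a median of -1.10, led by the zinc finger factors ZAT12 (-2.86 ± 0.62, adjusted p = 7.91e-04) and ZAT10 (-1.81 ± 0.60, adjusted p = 0.0185). Without Col-0 pool 2 there were 1 lower, 1 higher and a median of -0.01, and the salicylic acid list had 3 lower and 1 higher and the kinase list 2 lower and 2 higher. ZAT12 was still lower then (-1.63, adjusted p = 0.0363), and ZAT10 was not called (-0.14, adjusted p = 0.841). Of 4 senescence genes DIN1 was higher (2.12 ± 0.59, adjusted p = 0.00611) and NYE1 lower (-0.32 ± 0.12, adjusted p = 0.0383). NYE1 was not called without Col-0 pool 2. Of 5 phosphate starvation genes the phosphate transporter PHT1;4 (-2.79 ± 0.32, adjusted p = 4.69e-07) and SQD2 were lower and PHO1;H1 higher (2.91 ± 0.37, adjusted p = 1.59e-06). All 4 hydathode genes, PHT1;4 again among them, were lower, with log2 fold changes from -2.79 to -1.02, and their sum was 17.4 to 21.5 CPM against 55.0 to 56.0 in Col-0. In the margin and center of the double mutant it was 40.2 to 50.8 and 18.7 to 22.9 CPM.

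Markers of other cell types were also called in that margin, beside the same 43.9% of loci. All 4 photosynthesis genes, all 5 phloem genes, 3 of 4 guard cell genes and 4 of 6 xylem genes were lower, and 3 of 4 trichome genes were higher and 1 lower. Without Col-0 pool 2 there were 4 photosynthesis, 4 phloem, 3 guard cell and 2 xylem genes lower and 3 trichome genes higher. Examples are SUC2 of the phloem (-2.30 ± 0.11, adjusted p = 2.76e-12), KAT1 of guard cells (-2.18 ± 0.11, adjusted p = 8.74e-12) and the trichome regulators GL2 (1.91 ± 0.12, adjusted p = 1.57e-10) and GL1 (6.09 ± 0.68, adjusted p = 3.45e-07). GL1 read 0, 0.122 and 0 CPM in the Col-0 margin, so the size of its change is uncertain. Its fitted value was 8.20 without Col-0 pool 2. The interaction of PHT1;4 was -3.21 ± 0.77 (adjusted p = 0.00608), while TAA1 (-0.24 ± 0.28, adjusted p = 0.649), PUP1 and GLN1;4 did not pass that test. The part of cell composition in the WRKY changes was not tested.

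Between margin and center of Col-0, where 11.4% of all loci were called, the same lists gave 1 of 11 kinases lower (MKK1, -0.48 ± 0.14, adjusted p = 0.0271), 1 of 5 pattern-triggered genes higher (CYP71A13, 0.95 ± 0.18, adjusted p = 0.00155), and 0 of 11 salicylic acid, 0 of 10 wounding and 0 of 4 senescence genes. At an unadjusted p under 0.05 the last 3 lists had 2, 2 and 0 genes, beside 4394 of 17763 loci. Of 5 phosphate genes PHT1;4 (4.37 ± 0.42, adjusted p = 4.66e-07) and SQD2 were higher and PHO1;H1 (-3.13 ± 0.37, adjusted p = 6.43e-06) lower. In the center of the quadruple mutant against Col-0, where 31.1% of all loci were called, PR5 (0.79 ± 0.13, adjusted p = 1.54e-04) and the salicylic acid synthesis enzyme PBS3 (0.66 ± 0.11, adjusted p = 1.65e-04) were higher. EDS5 (-1.37 ± 0.37, adjusted p = 0.00758) and CBP60G were lower there, as were CYP71A13 (-1.37 ± 0.22, adjusted p = 9.70e-05), MPK4 and CBF2, while BAK1, DIN1 (2.29 ± 0.53, adjusted p = 0.00267) and 4 of 5 phosphate genes were higher. CBP60G (-1.01, adjusted p = 0.104) and BAK1 (0.23, adjusted p = 0.113) were not called there without Col-0 pool 2. In that center 5 of 6 xylem genes were higher and 3 of 4 hydathode genes lower.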

How the data were processed

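RNA of 18 libraries was sequenced, and the authors deposited 1 table of raw read counts per locus (33602 loci), which was used as deposited. Tools listed in the submitters' processing notes are HTSeq 0.7.2, TopHat2 2.0.13 and edgeR 3.8.6, with genome build TAIR10. The strand of counting is not given in the sources used here, so reads of members that overlap another gene (WRKY1, WRKY2, WRKY4, WRKY29, WRKY33, WRKY40, WRKY53 and WRKY69) cannot be assigned with certainty. The 5 summary rows of reads outside genes were left out of library sizes and tests (no feature 0.497% to 1.15%, ambiguous 1.38% to 1.57%, several places 3.71% to 16.0%).

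In R 4.3.3, edgeR 4.0.16 was run on these counts (TMM scaling, quasi-likelihood test, 1 mean per group over all 18 libraries), and filterByExpr, given the groups, left 17763 loci. Two-sided p-values received the Benjamini-Hochberg adjustment across those loci, and loci were called under 0.05. The 12 comparisons were margin against center in each genotype, genotypes within a piece, and the interactions. CPM in the text are scaled by TMM. SE come from the F statistic. Names, exon lengths and upstream windows come from RefSeq on TAIR10.1, matched by locus, and the scripts were tested on simulated counts.

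The members and gene lists were chosen with earlier results of these data known, subgroups and lists from textbook knowledge. Members called with a log2 change of at least 1, and in each comparison the 2 with the lowest adjusted p in each direction, are named with values, and list genes by up to 2 per direction. Genes of the pool 2 paragraphs, those added by the block, and members named with smaller values were chosen after their values were seen.

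Margin and center libraries of the same number correlated at 0.196 to 0.384 in 9 of 9 pairs, after removing group means, and pairs with other numbers at -0.238 to 0.0383. The leaf pool therefore served as a block in an alternative fit. The main tests of margin against center and of interactions had no block and did not use this pairing. Libraries of 2 genotypes with the same number correlated at -0.233 to 0.173 and were not paired. Libraries of a group are separate pools of plants, so p-values of fits without the pool block measure the spread between pools. In the pool block fit, differences between pools are removed. Its p-values measure how far the margin to center difference varied from pool to pool. Replicate libraries differed beyond counting noise in each group (mean chi-square per locus 2.18 to 6.21). Alternatives were RLE scaling, no filter on low counts, DESeq2 1.42.0, fits of the compared groups alone, blocks, and leaving out libraries. Counting intervals cover counting error only.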

Additional observations from a re-analysis of the deposited data

Results flagged for a closer look

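The difference between margin and center changed from Col-0 to the quadruple mutant, by the interaction test of edgeR, in WRKY6 (0.89 on the log2 scale), WRKY17 (-0.66), WRKY29 (-3.07) and WRKY47 (-1.29). From the double to the quadruple mutant it changed in WRKY29 (-4.17). Adjusted p was 0.0109, 0.0302, 0.012, 0.0306 and 0.018. In Col-0 the margin was above the center in each of the 3 pools for WRKY29 and WRKY47. Each of these values uses libraries that the others use as well. Groups of 3 libraries are too small for a check of single outlying libraries, and Col-0 pool 2 is described above from its values.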

How the results depend on the processing

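Shares of all loci called are given above for the leaf pool block and without Col-0 pool 2. They are not given for the other alternatives or for single libraries left out. Counts under those do not show whether the WRKY genes moved apart from all loci. Counts of members called, relative to those in the report, changed as follows. With the leaf pool as a replicate block there were 10 in margin against center of Col-0, 12 in that of the quadruple mutant, and 2, 9 and 3 in the interactions of the double mutant with Col-0, of the quadruple mutant with Col-0 and between the mutants. With the replicate number as a block there were 2 in the center of the quadruple mutant against Col-0, and the block changed no other count by over 1.5 times. DESeq2 gave 3 in margin against center of the double mutant, 0 in the double mutant margin against Col-0, 1 in the interaction of the quadruple mutant with Col-0 and 0 in that between the mutants. With only the groups compared in the fit there were 3 in margin against center of the double mutant, 1 in its margin against Col-0 and 2 in the quadruple mutant center against Col-0. Without a filter on low counts the double mutant margin had 4. Without both libraries of Col-0 pool 2 the quadruple mutant center had 2. Without the 2 libraries richest in reads aligned to several places there were 2 in margin against center of the double mutant and 1 in its margin against Col-0. The last 2 alternatives were chosen after seeing the data.

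Leaving out 1 library at a time gave 2 to 5 in margin against center of Col-0, 2 to 4 in the double and 4 to 7 in the quadruple mutant. For margins it gave 1 to 4 (double mutant against Col-0), 9 to 16 (quadruple mutant against Col-0; 9 without Col-0 margin library 2) and 4 to 6 (quadruple against double mutant). For centers it gave 1 to 1, 1 to 3 and 0 to 0, and for interactions 0 to 0, 2 to 6 and 0 to 1, in the same order. Of 45 called values of 16 members named for them, refitted under each alternative, 420 refits kept the call and direction under the alternatives other than these 2, 103 kept the direction and lost the call, and 0 reversed. Under these 2 they were 44 and 20. The called members WRKY1, WRKY11 and WRKY32 are outside these counts, as are members not called. Among those not called, WRKY33 and WRKY18 changed sign in the quadruple mutant margin without Col-0 pool 2. Causes were not tested. Depth limits WRKY29 in the center (2 to 8 reads a group) and the 14 untested members.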
